A study of Mus musculus with 10 samples.

Results

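In the count matrices 9 of 32285 genes were followed through incisor development: those that bind, make, break down or sense retinoic acid. They are a named list: the cellular binding proteins *Crabp1* and *Crabp2*, the serum retinol carrier *Rbp4*, the synthesis enzymes *Aldh1a2* and *Aldh1a3*, the breakdown enzymes *Cyp26a1* and *Cyp26b1*, and the nuclear receptors *Rarb* and *Rarg*. The samples were wild-type NMRI mouse embryos with no transgene or treatment. They were whole mandibles at embryonic stage E11.5 (4 samples in the labels) and lower incisor buds at E14.5 (4 samples) and E16.5 (2 samples), freed into single cells with collagenase P. Each stage pooled embryos of more than 1 litter. Because whole mandible was taken at E11.5 and only the buds later, stage and dissection cannot be told apart in any comparison with E11.5.

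Retinoic acid is made from vitamin A: retinol is oxidised to retinaldehyde, and ALDH1A enzymes oxidise retinaldehyde to retinoic acid. CRABP proteins hold the molecule inside the cell, CYP26 enzymes destroy it, and RAR receptors, paired with RXR, bind paired copies of a short DNA half-site and switch genes on or off when the ligand is present. Enzymes that make and destroy the signal in different cells are known to set up zones of exposure in the embryo, the face included, and too much or too little retinoic acid is known to disturb tooth formation. *Rarb* and *Cyp26a1* are both well-known genes that retinoic acid itself induces through receptor sites near their start.

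The start regions of *Rarb* and *Cyp26a1* are shown because these genes were found in largely different epithelial cells. The letters come from RefSeq windows of the GRCm38.p6 build, 250 bases before to 50 bases after the gene's start, written 5′ to 3′ on the gene's strand. The *Rarb* window is chr14:16575427-16575726 on the minus strand and the *Cyp26a1* window is chr19:37697558-37697857 on the plus strand. The *Rarb* window lies inside the span of the whole gene, at a start within it. Capitals mark a direct repeat of 2 receptor half-sites with 5 bases between them. The half-site was searched on both strands in 4 forms: AGGTCA, then AGTTCA as a second form, GGGTCA as the next and GGTTCA as the last.
Rarb: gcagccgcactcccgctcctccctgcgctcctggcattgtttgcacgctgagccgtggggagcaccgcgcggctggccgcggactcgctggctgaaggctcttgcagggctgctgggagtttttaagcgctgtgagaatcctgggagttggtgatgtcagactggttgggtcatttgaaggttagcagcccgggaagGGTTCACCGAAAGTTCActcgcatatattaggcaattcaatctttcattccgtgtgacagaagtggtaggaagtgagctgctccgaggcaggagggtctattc
Cyp26a1: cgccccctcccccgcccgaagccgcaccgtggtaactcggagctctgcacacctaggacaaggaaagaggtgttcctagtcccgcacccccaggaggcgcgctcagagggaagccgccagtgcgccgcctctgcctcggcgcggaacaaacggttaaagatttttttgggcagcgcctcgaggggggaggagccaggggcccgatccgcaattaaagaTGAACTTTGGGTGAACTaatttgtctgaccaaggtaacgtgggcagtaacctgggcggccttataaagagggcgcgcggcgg
In *Rarb* the repeat was on the gene's strand, with GGTTCA as its first half-site and AGTTCA as the other, 53 to 37 bases before the start. In *Cyp26a1* it was on the opposite strand, with AGTTCA as both half-sites, 32 to 16 bases before the start. Such a repeat was in 32 of 32851 windows of the same length, or 0.0974%, and in 2 of the 9 windows found for 7 members. Repeats with 2 bases between the half-sites were in 0.268% of all windows and those with 1 base in 0.222%, and no window of a member held either. None of the 59 windows found for the wider pathway list held the repeat with 5 bases. *Crabp2* and *Aldh1a3* had no window in the table. A match describes the letters and is not evidence that a receptor binds there.

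Each stage was deposited as 1 pooled matrix of unique molecular identifier (UMI) counts whose barcodes cannot be assigned to the labelled samples. Each stage is therefore 1 sample, and no p-value was computed. The cells kept had 700 or more detected genes and no more than 20% of UMIs from mitochondrial genes. They numbered 6573, 6091 and 4511 in stage order, with medians of 5664, 3471 and 6260 UMIs. Between 13 and 17 barcodes occurred in both stages of a pair. A cell was given a lineage when at least 3 markers of a list were detected and led every other list by at least 2, which left 15.9%, 8.95% and 6.92% of cells without one. Mesenchyme-like cells numbered 5234, 4530 and 2511, epithelium-like cells 9, 685 and 1518, and endothelium-like cells 67, 158 and 118. In each class of at least 50 cells, its own list had more genes among the 10 with the highest fold than any other list. The same lists called the cells, so this does not check the calls. Cells just inside the limit, with a lead of 2, numbered 741, 525 and 278, and cells just outside, with a lead of 1, 643, 367 and 203. Comparisons with epithelium at E11.5 were not made, as 9 cells were too few. Levels are given as CPM, the UMIs of a gene scaled to a fixed total, over all cells of a group, with the exact 95% Poisson interval in brackets, which covers counting error only.

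The binding proteins were present in both tissues. Gene positions are whole genes on GRCm38. *Crabp1* (ENSMUSG00000032291, chr9:54764748-54773110), which binds retinoic acid in the cytoplasm, was at 373 CPM (367 to 379) in mesenchyme-like cells at E11.5. It was at 346 CPM (337 to 354) at E14.5 and 270.5 CPM (263 to 278) at E16.5. Epithelium-like cells had 105 CPM (96.8 to 114) at E14.5 and 81.9 CPM (77.8 to 86.3) at E16.5. The mesenchymal intervals lay above the epithelial ones at both stages, and the 5 groups had 5 separate intervals in that order. Endothelium-like cells, taken as cells that should lack these genes, had 14.46, 21.7 and 6.75 CPM over the 3 stages. Other cells of E11.5 that should lack it had more, 37.2 CPM (24.5 to 54.1) in 123 erythroid-like and 35.2 CPM (20.5 to 56.3) in 55 immune-like cells, still below the tissue's mesenchymal level. Free RNA from broken cells gives every cell a low level, and a level whose interval overlaps that of such cells is not set apart from background here.

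*Crabp2* (ENSMUSG00000004885, chr3:87948666-87953376), known to carry retinoic acid to its receptors, was at 261 CPM (256 to 265) in E11.5 mesenchyme-like cells. Its level was 146 CPM (141 to 152) at E14.5 and 108 CPM (103 to 113) at E16.5. In epithelium-like cells it was at 133 CPM (124 to 143) and 128 CPM (123 to 134). The intervals of the epithelial and mesenchymal levels of E14.5 overlapped slightly, and their log2 ratio, −0.13 (−0.24 to −0.02), lay far inside 2-fold. The epithelial intervals of both stages overlapped as well. Endothelium-like cells had 11.8, 8.95 and 5.78 CPM, and the erythroid-like and immune-like cells of E11.5 had 30.3 CPM (18.99 to 45.9) and 49.7 CPM (31.8 to 73.9). *Rbp4* (ENSMUSG00000024990, chr19:38116629-38125281), which carries retinol in blood, had 42, 15 and 19 UMIs in all mesenchyme-like cells of the 3 stages, or 1.01, 0.83 and 1.02 CPM, and 0 and 1 UMI in epithelium-like cells at E14.5 and E16.5. It was at or near 0 in every group.

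The synthesis enzymes were distributed differently. *Aldh1a2* (ENSMUSG00000013584, chr9:71215789-71296243), the main retinaldehyde dehydrogenase of early embryonic mesenchyme, was at 10.7 CPM (9.72 to 11.7), 9.60 CPM (8.22 to 11.1) and 14.1 CPM (12.5 to 15.9) in mesenchyme-like cells. The levels at E11.5 and E14.5 overlapped and that at E16.5 was higher. In epithelium-like cells 2 UMIs were found at E14.5 and 2 at E16.5, or 0.342 CPM (0.0414 to 1.24) and 0.113 CPM (0.0137 to 0.408). Endothelium-like cells had 0 UMIs at every stage. Taking 3 counts as the limit of a 0, this allows up to 3.94, 3.83 and 2.89 CPM. The erythroid-like and immune-like cells of E11.5 had 2.75 CPM (0.334 to 9.95) and 2.07 CPM (0.0524 to 11.53), on 2 UMIs and 1 UMI. Both intervals overlapped the mesenchymal one of that stage. Whether *Aldh1a2* at E11.5 is set apart from background thus depends on the cells it is compared with.

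*Aldh1a3* (ENSMUSG00000015134, chr7:66390890-66427517), a second retinaldehyde dehydrogenase, was highest at E16.5 in both tissues. In mesenchyme-like cells it was at 8.53 CPM (7.66 to 9.46) at E11.5, 19.1 CPM (17.2 to 21.3) at E14.5 and 115 CPM (110.0 to 120) at E16.5. In epithelium-like cells it was at 27.9 CPM (23.8 to 32.5) at E14.5 and 151 CPM (145 to 157) at E16.5. The level in endothelium-like cells was 9.20 CPM (3.70 to 18.96) at E11.5, which overlapped the mesenchymal one, 7.67 CPM at E14.5 and 4.82 CPM (1.565 to 11.2) at E16.5. The share of epithelium-like cells with a UMI went from 12.3% to 44.9%, and from 4.98% to 22.3% after each cell was thinned to 2000 UMIs. In endothelium-like cells that share was 3.80% and 2.54% at median depths of 3330 and 5909 UMIs.

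The breakdown enzymes divided the tissues. *Cyp26a1* (ENSMUSG00000024987, chr19:37697798-37701536), which hydroxylates retinoic acid, was at 25.8 CPM (21.9 to 30.3) in epithelium-like cells of E14.5 and 61.0 CPM (57.4 to 64.8) in those of E16.5. Mesenchyme-like cells had 1.52 CPM (1.17 to 1.94), 0.666 CPM (0.344 to 1.16) and 2.05 CPM (1.45 to 2.81). The mesenchymal level at E16.5 was within the interval of endothelium-like cells, 2.89 CPM (0.596 to 8.45). Among the 9 epithelium-like cells of E11.5, 1 held all 5 of their *Cyp26a1* UMIs.

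*Cyp26b1* (ENSMUSG00000063415, chr6:84571414-84593908), an enzyme of the same reaction, was at 14.4 CPM (13.3 to 15.6), 32.3 CPM (29.8 to 35.1) and 10.7 CPM (9.28 to 12.3) in mesenchyme-like cells, highest at E14.5, with 3 intervals that did not overlap. Epithelium-like cells held 5 UMIs at E14.5 and 1 at E16.5, or 0.855 CPM (0.278 to 1.995) and 0.0565 CPM (0.00143 to 0.315). Endothelium-like cells had 7.67 CPM (2.81 to 16.7) at E14.5, below the mesenchymal interval.

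*Rarb* was found in both tissues, and *Rarg* was higher in the mesenchyme than in the epithelium. *Rarb* (ENSMUSG00000017491, chr14:16430839-16819156), the receptor gene that retinoic acid induces, was at 10.4 CPM (9.45 to 11.4), 10.3 CPM (8.89 to 11.9) and 23.9 CPM (21.7 to 26.2) in mesenchyme-like cells. In epithelium-like cells it was at 14.02 CPM (11.2 to 17.4) and 17.2 CPM (15.4 to 19.3), and those intervals overlapped. Endothelium-like cells had 0 UMIs at all 3 stages. The immune-like cells of E11.5 had 2.07 CPM (0.0524 to 11.53), on 1 UMI, which overlapped the mesenchymal interval of that stage. The erythroid-like cells had 1.38 CPM (0.0349 to 7.67), below it. Whether *Rarb* at E11.5 is set apart from background thus depends on the cells it is compared with. *Rarg* (ENSMUSG00000001288, chr15:102234938-102257517), a receptor of skin and cartilage precursors, was at 40.4 CPM (38.5 to 42.4), 39.7 CPM (36.8 to 42.7) and 67.1 CPM (63.4 to 70.9) in mesenchyme-like cells. Over all epithelium-like cells its levels were 13.3 CPM (10.5 to 16.6) and 17.9 CPM (15.9 to 19.9). These could not be told from the 8.95 CPM (3.597 to 18.4) and 13.5 CPM (7.38 to 22.6) of endothelium-like cells at the same stages. The 123 immune-like cells of E14.5 had less, 2.24 CPM (0.271 to 8.08), below the epithelial interval of that stage. Whether epithelial *Rarg* is set apart from background thus depends on the cells it is compared with.

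**Figure D1:**
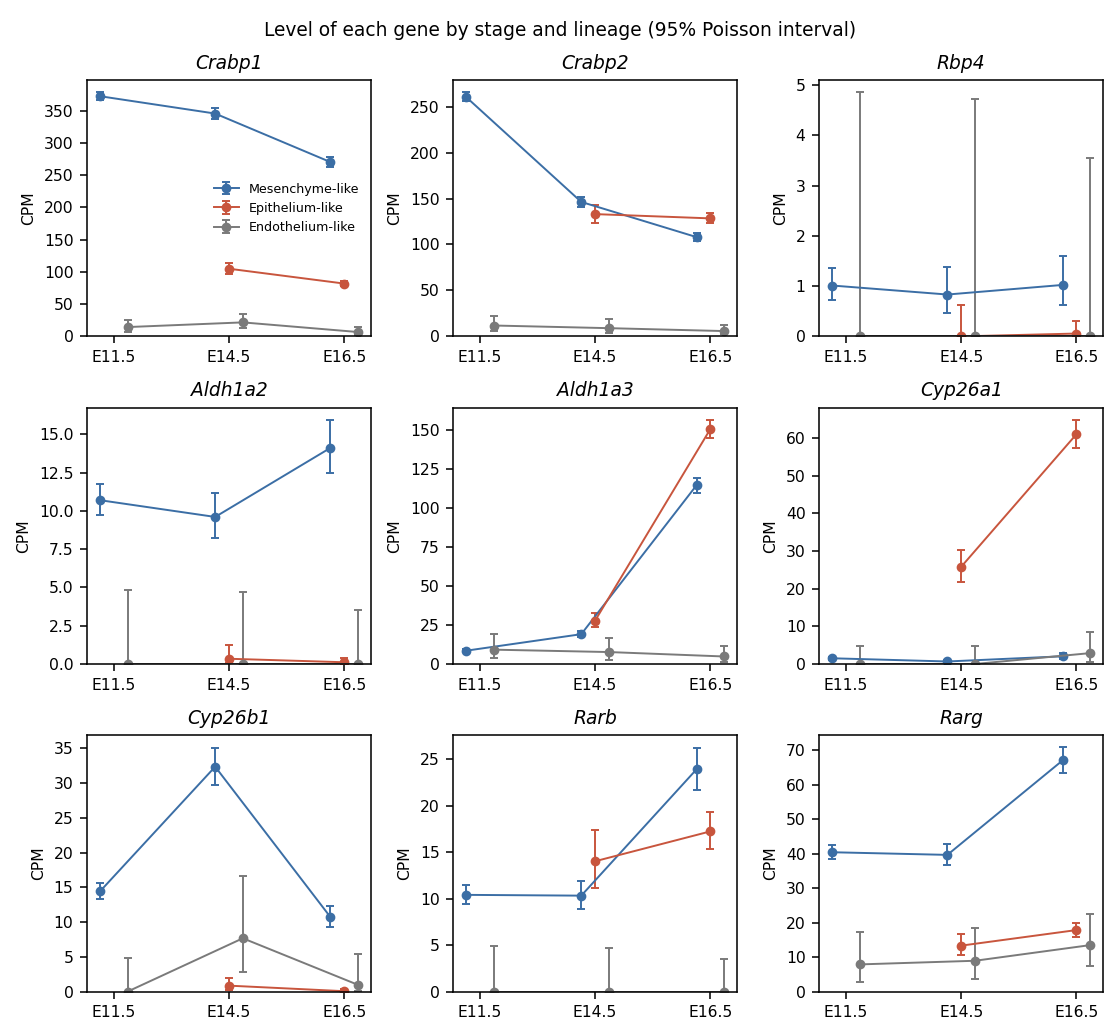
Level (CPM, linear axis) of each of the 9 genes by stage in mesenchyme-like, epithelium-like and endothelium-like cells, 1 panel a gene with its own scale; points are levels over all cells of a group of at least 50 cells and bars 95% Poisson intervals. *Aldh1a3* is at its highest at E16.5 in both main tissues, *Cyp26a1* is above 20 CPM in epithelium-like cells alone, and *Cyp26b1* peaks at 32.3 CPM in E14.5 mesenchyme-like cells.

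The change between stages asks how the pathway is set as the bud becomes an incisor. Ratios were taken as log2 of CPM with 10 CPM added to both sides, which understates the change of low genes, and a gene was called when it differed by at least 2-fold and had at least 50 UMIs in the groups together. From E11.5 to E14.5 in mesenchyme-like cells, 0 of 9 members were called, where 2.8% of 12731 genes were higher and 1.89% lower. *Cyp26b1* and *Aldh1a3* came nearest on the higher side, with log2 ratios of 0.80 (0.68 to 0.91) and 0.65 (0.53 to 0.78), and both passed 2-fold when 1 CPM was added in place of 10. *Crabp2* had a log2 ratio of −0.79 (−0.85 to −0.73), within 2-fold. *Rarb*, *Rarg*, *Aldh1a2* and *Rbp4* had intervals that included 0.

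From E14.5 to E16.5 in mesenchyme-like cells, 1 of 8 members tested was called higher and 1 lower, beside 1.2% and 0.376% of 12234 genes. *Aldh1a3* rose, with a log2 ratio of 2.10 (1.98 to 2.21). *Cyp26b1* fell by 1.03 on the log2 scale (−1.17 to −0.89), so its interval reaches inside the 2-fold limit, and it was not called under 5 of the 10 alternative settings. *Rarb* and *Rarg* had log2 ratios of 0.74 (0.59 to 0.88) and 0.63 (0.52 to 0.74), within 2-fold. For *Rarb* this depends on the added 10 CPM, since its levels of 10.3 and 23.9 CPM lie more than 2-fold apart. In epithelium-like cells 1 of 6 members tested was called higher and 0 lower, beside 1.25% and 0.306% of 11451 genes. *Aldh1a3* rose there by almost the same log2 ratio, 2.09 (1.91 to 2.26). *Cyp26a1* lay on the limit, with 0.99 (0.80 to 1.17), and the interval of *Crabp2*, −0.05 (−0.16 to 0.06), included 0.

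The median log2 ratio over all genes was −0.10, 0.08 and 0.10 in these stage comparisons. With counts scaled by the median of ratios, median log2 ratios of −0.21, 0.16 and 0.17 were removed before the added CPM. Genes higher and lower then went from 357 and 241 to 449 and 157 for E14.5 against E11.5 mesenchyme. They went from 147 and 46 to 109 and 62 for E16.5 against E14.5 mesenchyme and from 143 and 35 to 109 and 51 for the epithelium. The count of members called was the same under that scaling in all 5 comparisons run.

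Between the tissues at E14.5, 1 of 8 members tested was called higher in epithelium-like cells and 3 lower, beside 3.63% and 4.21% of 11434 genes. *Cyp26a1* was higher in the epithelium, with a log2 ratio of 1.75 (1.57 to 1.92). *Cyp26b1* was lower, at −1.96 (−2.08 to −1.79), as were *Crabp1* at −1.63 (−1.74 to −1.52) and *Rarg* at −1.09 (−1.29 to −0.88). *Aldh1a2*, at 0.342 CPM in epithelium and 9.60 CPM in mesenchyme, was not called. Its log2 ratio with the added 10 CPM was −0.92 (−1.04 to −0.76). At E16.5, 1 of 8 was called higher and 4 lower, beside 3.47% and 4.34% of 12618 genes. *Cyp26a1* reached 2.56 (2.44 to 2.66), and *Crabp1*, *Rarg*, *Aldh1a2* and *Cyp26b1* were lower in epithelium by −1.61 (−1.69 to −1.53), −1.47 (−1.59 to −1.34), −1.25 (−1.36 to −1.14) and −1.04 (−1.15 to −0.93). *Aldh1a3* was called in neither tissue comparison, with log2 ratios of 0.38 (0.18 to 0.57) and 0.37 (0.29 to 0.44). The epithelial markers summed to 95.1 and 183 CPM in mesenchyme-like cells of these stages and to 104 and 202 CPM in endothelium-like cells, against 2603 and 3236 CPM in epithelium-like cells.

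**Figure D2:**
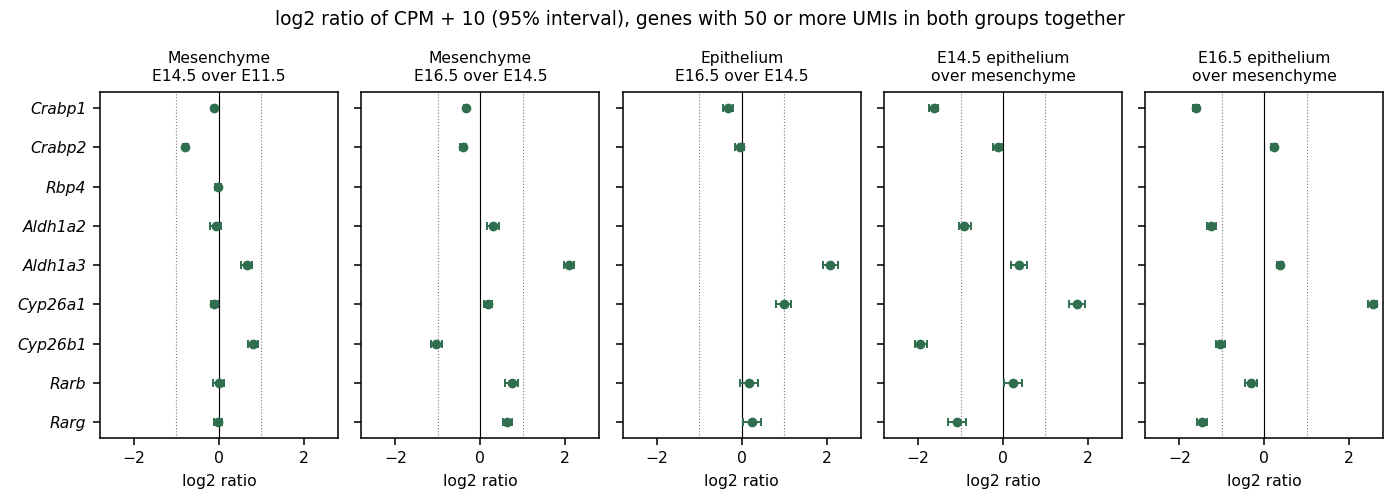
log2 ratio of CPM + 10 of each member in the 5 comparisons, with 95% intervals; dotted lines mark 2-fold, and members with under 50 UMIs in the groups together have no point. *Aldh1a3* lies beyond 2-fold in both E16.5 to E14.5 panels, and *Cyp26a1* and *Cyp26b1* lie on opposite sides of 0 in both tissue panels.

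Within the epithelium, cells were grouped by the short list with the most UMIs: oral or outer (*Krt15*, *Meis2*, *Igfbp5*), tooth bud (*1500009L16Rik* and *Sp6* among others), Shh domain (*Shh*, *Fgf4*, *Fgf9*) and outer Nr2f2 domain (*Nr2f2*, *Igfbpl1*). A further list, the Pcp4 domain (*Pcp4*, *Cldn10*, *Prdm6*, *Sfrp5*), also competed for cells. Levels in that domain are not reported here, so rankings of regions leave it out. Cells of 1 region share their library, so these are descriptions of 1 sample a stage. At E14.5 *Rarb* was at 35.4 CPM (25.6 to 47.7) in 158 oral or outer cells and 8.26 CPM (5.53 to 11.9) in 334 tooth bud cells. In thinned tooth bud cells it was at 2.37 CPM, which rests on few UMIs and has no interval here. *Rarb* had 0 UMIs in 45 Shh-domain cells, which allows up to 7.06 CPM. *Cyp26a1* had the opposite order of the larger regions, 0.824 CPM (0.0209 to 4.59) in oral or outer cells and 39.0 CPM (32.8 to 46.1) in tooth bud cells. Its level in the Shh domain was 11.8 CPM (3.82 to 27.5). The intervals of oral or outer and tooth bud cells did not overlap for either gene.

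At E16.5 *Rarb* was at 26.8 CPM (22.8 to 31.2) in 468 oral or outer cells and 17.3 CPM (14.4 to 20.7) in 539 tooth bud cells. It had 0 UMIs in 110 Shh-domain cells with a median of 8637 UMIs, which allows up to 2.26 CPM, and 2 UMIs in 179 outer Nr2f2-domain cells, 1.08 CPM (0.131 to 3.90). Of the regions listed, *Cyp26a1* was highest in that last group, at 108 CPM (93.5 to 124). It was at 68.0 CPM (62.1 to 74.4) in tooth bud, 62.5 CPM (49.8 to 77.5) in Shh-domain and 38.6 CPM (33.8 to 43.9) in oral or outer cells. The tooth bud and Shh-domain intervals overlapped. The oral or outer cells of E16.5 held 235 *Cyp26a1* UMIs and those of E14.5 held 1. These are not the same class by the same markers, since *Meis2*, 1 of the 3 genes that pick it, was at 92.5 CPM in epithelium-like cells of E14.5 and 6.55 CPM in those of E16.5, and the part of this in the difference was not tested. The outer Nr2f2 domain, with the highest *Cyp26a1* of the regions listed, was thus at or near 0 for *Rarb*.

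*Crabp1* was higher in tooth bud than in oral or outer cells, at 152 CPM (140 to 166) against 37.1 CPM (27.0 to 49.6) at E14.5. In E16.5 cells it was at 163 CPM (154 to 173) against 18.2 CPM (15.0 to 22.0). It was at 9.41 CPM (2.56 to 24.1) and 53.5 CPM (41.8 to 67.4) in the Shh domain and at 7.56 CPM (4.13 to 12.7) in the E16.5 outer Nr2f2 domain. The oral or outer and Shh-domain intervals of E14.5 overlapped that of endothelium-like cells, 21.7 CPM (12.7 to 34.8). So did the outer Nr2f2 one of E16.5, against 6.75 CPM (2.71 to 13.9), and these levels are not set apart from background. The 10% of E16.5 epithelium-like cells with the most *Crabp1* UMIs held 81.2% of them. *Crabp2* varied less, from 77.7 CPM (65.6 to 91.5) in the outer Nr2f2 domain to 158 CPM (149 to 167) in the tooth bud among these 4 regions at E16.5.

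Of the regions listed, *Aldh1a3* was highest at E16.5 in the Shh domain. At E14.5 it was at 61.2 CPM (39.96 to 89.6) there, 33.1 CPM (27.3 to 39.6) in tooth bud cells and 3.296 CPM (0.898 to 8.44) in oral or outer cells. The oral or outer interval overlapped that of endothelium-like cells of E14.5, 7.67 CPM (2.81 to 16.7). In thinned cells of E14.5 the Shh domain had 34.5 CPM, the tooth bud 37.9 CPM and the oral or outer cells 13.8 CPM. The thinned levels rest on few UMIs and have no interval here, so no order is read from them. At E16.5 the Shh domain had 337 CPM (306 to 369), the tooth bud 131 CPM (122 to 139) and oral or outer cells 107 CPM (98.5 to 115). The outer Nr2f2 domain had 203 CPM (183 to 225). All 4 intervals of E16.5 lay apart. *Rarg* was at 28.0 CPM (19.4 to 39.1) in oral or outer and 9.69 CPM (6.71 to 13.5) in tooth bud cells of E14.5. The same regions of E16.5, with 20.7 CPM (17.2 to 24.6) and 17.5 CPM (14.52 to 20.8), overlapped. Of these *Rarg* intervals, only the oral or outer one of E14.5 lay above that of endothelium-like cells of its stage.

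**Figure D3:**
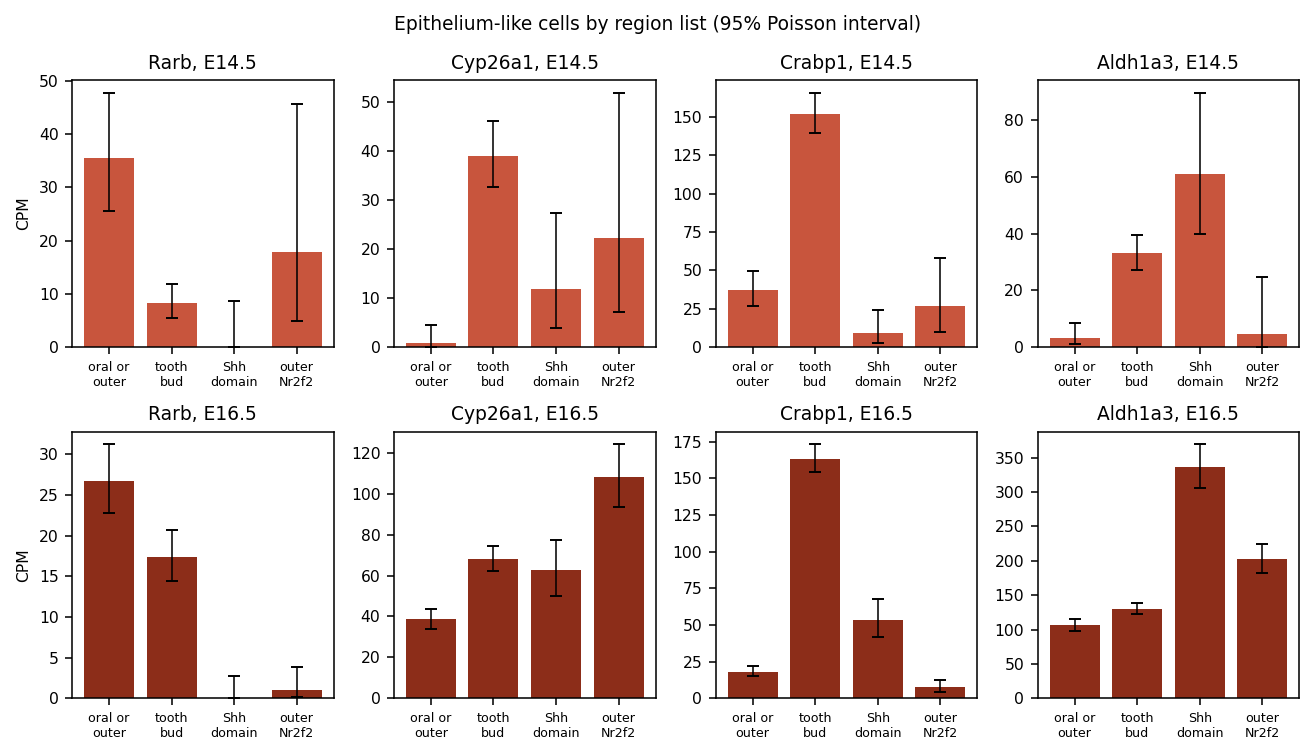
Level (CPM, linear axis from 0) of *Rarb*, *Cyp26a1*, *Crabp1* and *Aldh1a3* in 4 regions of epithelium-like cells at E14.5 (upper row) and E16.5 (lower row), with 95% Poisson intervals. *Rarb* has no bar in the Shh domain at either stage, and *Aldh1a3* is at 337 CPM there at E16.5, above the other regions drawn.

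In single epithelium-like cells *Rarb* and *Cyp26a1* were seldom found together. At E14.5, 88 cells had a *Cyp26a1* UMI and 61 a *Rarb* UMI, and 4 had both, or 4.55% of the first and 6.56% of the second. *Rarb* was at 2.81 CPM (0.764 to 7.18) in cells with *Cyp26a1* and 17.6 CPM (13.9 to 22.0) in cells without it. At E16.5, 446 and 156 cells had a UMI and 17 had both, or 3.81% and 10.9%. *Rarb* was then at 5.35 CPM (3.82 to 7.28) in cells with *Cyp26a1* and 25.9 CPM (22.9 to 29.3) in cells without it. Cells with *Cyp26a1* were the deeper ones, with medians of 11235 and 11336 UMIs against 4932 and 6285. After thinning to 2000 UMIs a cell, E14.5 had 26 cells with *Cyp26a1* and 17 with *Rarb*, too few for the number with both to be read. At E16.5, 0 of the 154 thinned cells with *Cyp26a1* and 2.89% of those without it had *Rarb*.

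The separation was also seen inside the regions of E16.5. Among the 468 oral or outer cells of E16.5, 104 had *Cyp26a1*, 78 had *Rarb* and 2 had both. *Rarb* was at 2.04 CPM (0.556 to 5.23) in those with *Cyp26a1* and 38.5 CPM (32.7 to 45.0) in the rest. Among the 539 tooth bud cells, 14 of the 186 with *Cyp26a1* had *Rarb*, which was at 10.3 CPM (7.15 to 14.3) against 23.8 CPM (19.1 to 29.4). In tooth bud cells of E14.5 *Rarb* was at 2.96 CPM (0.806 to 7.57), on 4 UMIs, with *Cyp26a1* and 11.6 CPM (7.50 to 17.1) without it. These intervals overlapped slightly, which does not decide whether the levels differ. In the oral or outer cells of E14.5 only 1 cell had *Cyp26a1*, too few to compare. *Aldh1a3* went with *Cyp26a1* in the oral or outer cells of E16.5: *Cyp26a1* was at 60.4 CPM (52.1 to 69.6) in the 178 with an *Aldh1a3* UMI and 15.3 CPM (11.1 to 20.4) in the others. *Rarb* was at 11.1 CPM (7.75 to 15.5) against 43.5 CPM (36.3 to 51.7) in the same cells. In tooth bud cells *Cyp26a1* with and without *Aldh1a3* had overlapping intervals at E16.5, 71.998 CPM (64.3 to 80.3) and 61.4 CPM (52.4 to 71.5), and at E14.5 it was at 25.7 CPM (16.7 to 37.999) against 44.1 CPM (36.3 to 53.1). These pairs were picked from 108 pairs of members and groups after their values were seen, and no test was made.

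In the mesenchyme *Rarb* went with *Aldh1a2*. At E16.5, 53 of the 148 cells with an *Aldh1a2* UMI had *Rarb*, which was at 62.4 CPM (49.5 to 77.5) in those 148 cells and 21.02 CPM (18.9 to 23.3) in the other mesenchyme-like cells. At E14.5 it was at 29.3 CPM (16.03 to 49.2) against 9.80 CPM (8.39 to 11.4), and at E11.5 at 19.1 CPM (14.6 to 24.6) against 9.69 CPM (8.73 to 10.7). Both groups were of like depth at E16.5, with medians of 5702 and 6001 UMIs. After thinning, 17.4% against 4.71% of cells had *Rarb* at E16.5 and 6.76% against 1.66% at E14.5. At E11.5 it was 2.13% against 2.27%, where the difference was no longer seen. Few thinned cells had *Aldh1a2*, 2.79% of 2470 at E16.5, 1.88% of 3927 at E14.5 and 1.92% of 4895 at E11.5. The thinned shares with *Rarb* thus rest on few cells and are given without intervals. *Cyp26b1* was at 10.5 CPM (3.40 to 24.4) in the E14.5 cells with *Aldh1a2* and 32.9 CPM (30.3 to 35.7) in those without.

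**Figure D4:**
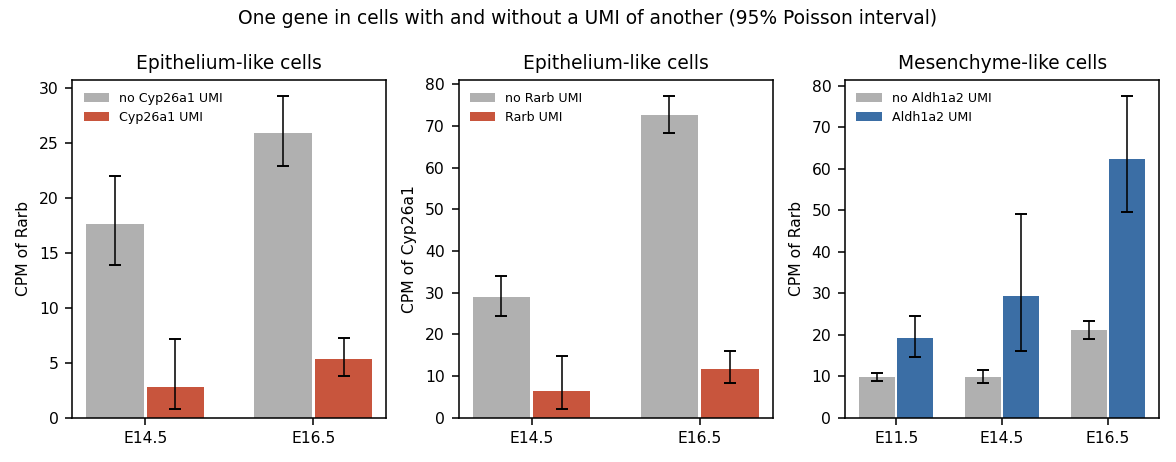
Level (CPM, linear axis from 0) of 1 gene in cells with and without a UMI of another, with 95% Poisson intervals: *Rarb* by *Cyp26a1* and *Cyp26a1* by *Rarb* in epithelium-like cells, and *Rarb* by *Aldh1a2* in mesenchyme-like cells. In the epithelium the bar for cells with the other gene is the lower one at both stages, and in the mesenchyme it is the higher one at all 3.

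Regions of the mesenchyme were formed in the same way, from odontogenic (*Pax9*, *Lhx6*, *Barx1* and others), aboral distal (*Hand2*, *Alx4* and others) and osteogenic (*Runx2*, *Sp7* and others) lists. A chondrogenic list (*Sox9*, *Col2a1* and others) also competed for cells, and its levels are not reported here. The order of *Aldh1a2* between odontogenic and aboral distal cells turned while its level over the tissue stayed between 9.60 and 14.1 CPM. In odontogenic cells it was at 15.96 CPM (14.3 to 17.7) at E11.5, 5.04 CPM (3.47 to 7.08) at E14.5 and 4.02 CPM (2.76 to 5.64) at E16.5. In aboral distal cells it was at 4.40 CPM (3.22 to 5.87), 16.3 CPM (12.6 to 20.9) and 15.4 CPM (12.0 to 19.4). Osteogenic cells, of which E11.5 had 3, had 12.7 CPM (9.002 to 17.5) at E14.5 and 32.5 CPM (26.7 to 39.3) at E16.5. The odontogenic interval lay above the aboral one at E11.5 and below it at both later stages. *Hand2*, of the aboral distal list, was among the 10 genes of highest fold in all mesenchyme-like cells at each stage. Whether a list picks the same kind of cell in whole mandible at E11.5 as in the later buds was not tested. When cells with 3 or more markers of a further lineage were left out, *Aldh1a2* at E16.5 was at 19.2 CPM in osteogenic and 2.42 CPM in odontogenic cells. Both values lie below the intervals given above. The level over all mesenchyme-like cells under that setting is not reported here.

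*Cyp26b1* was at 54.9 CPM (47.8 to 62.7) in aboral distal cells at E14.5, against 19.4 CPM (16.2 to 23.1) in odontogenic and 20.8 CPM (15.9 to 26.6) in osteogenic cells. The odontogenic and osteogenic intervals overlapped that of endothelium-like cells of E14.5, 7.67 CPM (2.81 to 16.7), and are not set apart from background. At E16.5 the aboral level was 16.003 CPM (12.6 to 20.1) and the odontogenic one 7.79 CPM (5.997 to 9.94). *Rarb* at E16.5 was at 35.2 CPM (29.2 to 42.2) in osteogenic, 25.7 CPM (21.3 to 30.8) in aboral distal and 17.5 CPM (14.8 to 20.6) in odontogenic cells, the same order as *Aldh1a2*. The osteogenic and aboral distal intervals of *Rarb* overlapped. *Aldh1a3* was at 132 CPM (124 to 139.98), 90.8 CPM (82.3 to 99.9) and 103 CPM (92.1 to 114) in odontogenic, aboral distal and osteogenic cells, the odontogenic level being the highest of the 3. *Crabp1* at E11.5 was at 435 CPM (426 to 444) in odontogenic and 269 CPM (259 to 279) in aboral distal cells. At E14.5 these were 246 CPM (234 to 258) and 424 CPM (404 to 445), so its order turned as that of *Aldh1a2* did, with the same limit.

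**Figure D5:**
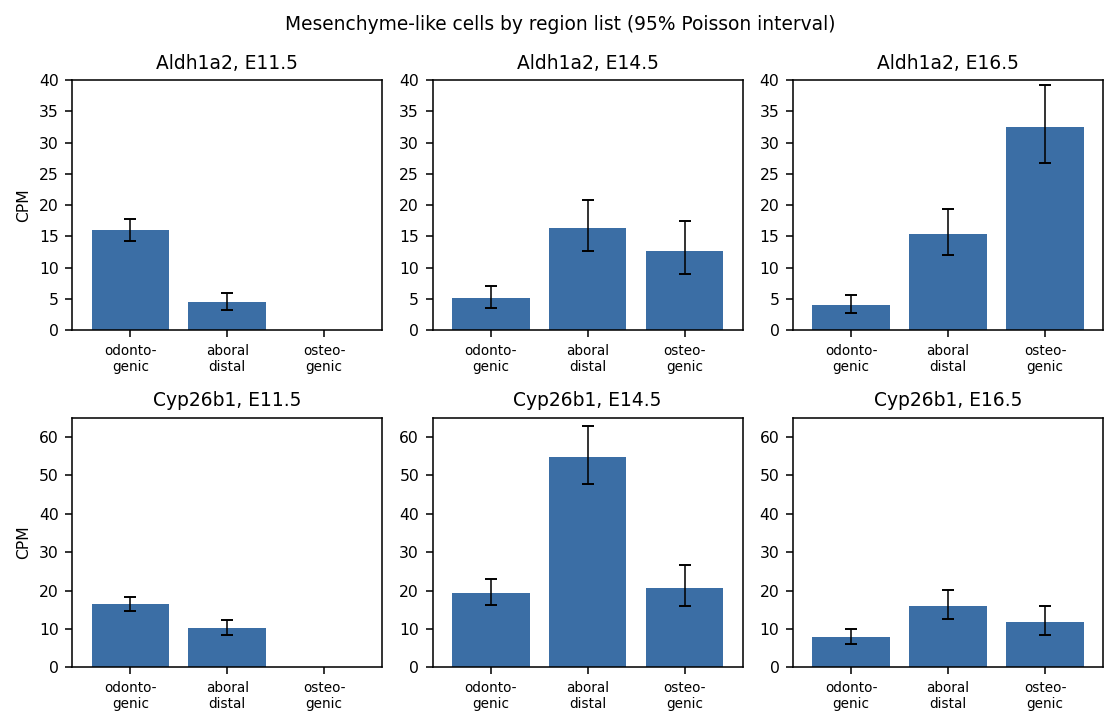
Level (CPM, linear axis from 0, same scale along a row) of *Aldh1a2* and *Cyp26b1* in odontogenic, aboral distal and osteogenic mesenchyme-like cells by stage, with 95% Poisson intervals; the 3 osteogenic cells of E11.5 are not drawn. *Aldh1a2* has its highest bar in odontogenic cells at E11.5 and its lowest there at both later stages, and *Cyp26b1* has its highest bar in aboral distal cells at E14.5.

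Of 53 further genes of the pathway, 26 to 32 had enough UMIs to be tested in a comparison. From E11.5 to E14.5 in mesenchyme-like cells 0 of 32 were higher and 4 lower, beside 2.8% and 1.89% of all genes, and all 4 came from the genes known to respond to retinoic acid. *Nr2f1* and *Nr2f2*, nuclear receptors of the COUP-TF family, went from 262 to 0.28 CPM and from 232 to 4.99 CPM, with log2 ratios of −4.73 and −4.01. The homeobox genes *Meis2* and *Meis1* went from 344 to 19.98 CPM and from 31.2 to 4.77 CPM. From E14.5 to E16.5 in mesenchyme-like cells 1 of 30 was higher and 1 lower, beside 1.2% and 0.376% of all genes. The higher one was *Dhrs3*, which turns retinaldehyde back to retinol, at 6.16 and 23.6 CPM with a log2 ratio of 1.06 (0.91 to 1.19). *Meis2* was the 1 gene lower there, at −1.40, and the 1 of 26 lower in epithelium-like cells, from 92.5 to 6.55 CPM, where 0.306% of all genes were lower.

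In epithelium-like against mesenchyme-like cells 6 of 27 were higher and 1 lower for E14.5, and 5 of 30 higher and 2 lower for E16.5, beside the 3.63% and 4.21% and the 3.47% and 4.34% of all genes given above. The fatty acid and retinoid carrier *Fabp5* was at 1556 and 352 CPM in epithelium and mesenchyme of E14.5. Its E16.5 levels were 1028 and 283 CPM. *Rdh10*, which oxidises retinol to retinaldehyde, was at 2.56 and 17.1 CPM at E14.5 and 3.79 and 27.7 CPM at E16.5, lower in epithelium. Higher in epithelium at E14.5 were also *Nr2f2*, *Tbx1*, *Meis1* and *Meis2*, with log2 ratios from 1.77 to 3.36, and the first 3 of these were called at E16.5 too. *Nr2f2* and *Meis2* also serve in the region lists. None of the 10 tested receptors and cofactors was called in any of the 5 comparisons, beside 0.306% to 4.34% of all genes in a direction. With so few genes at those shares, this is not read as a result about receptors. The list does not hold the members *Rarb* and *Rarg*, and *Rarg* was called lower in epithelium at both stages.

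The genes most like each member in pattern were ranked by Pearson's r of log2 (CPM + 10) over the 11 groups of stage and lineage with at least 50 cells, among 4957 genes that reached 50 CPM in a group. The groups of a stage share a library, so r is a description. *Cyp26a1* was closest to *Col17a1*, *Cdh3* and *Cldn10*, with r of 0.99 for each, and *Aldh1a2* to *Pdgfra*, *Hand2* and *S1pr3*, with r of 0.98. *Crabp1* was closest to *Gpc6*, *Igsf3* and *Fzd2* (r from 0.96 to 0.98) and *Crabp2* to *Fzd2*, *Tenm3* and *Epb41l3* (r from 0.97 to 0.98). For *Aldh1a3* they were *Pdpn*, *Prss35* and *Pthlh* (r from 0.93 to 0.95) and for *Cyp26b1* *Pax3*, *Rspo3* and *Sobp* (r from 0.91 to 0.97). *Rarb* was closest to *Rnd3*, *Epha7* and *Unc5c* (r from 0.95 to 0.96) and *Rarg* to *Bccip*, *Asxl3* and *Hmgn3* (r from 0.95 to 0.97). *Pdgfra* is a mesenchyme marker, and *Hand2* and *Cldn10* serve in the region lists. *Rbp4* reached 2.24 CPM at most, and its likeness to other genes is not given.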

How the data were processed

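Single cells of mouse mandibles (E11.5) and lower incisor buds (E14.5, E16.5) were sequenced with the 10x Genomics 3' v3 kit. Per the labels, Cell Ranger 4.0.0 and the mm10 build were used, and the authors deposited 1 matrix of raw UMI counts per stage. The barcodes of a stage carry 1 suffix for all samples. Cells were filtered as in the study's methods, at 700 genes and 20% mitochondrial UMIs. The members and lists were chosen with earlier results of these data known, and the rules for calling lineages (3 markers, a lead of 2, 12 markers a list, 1 of which is not in the files) and regions (2 UMIs, any lead) were set after the data were seen. No doublet caller was run.

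Counts were summed over the cells of a group. Exact Poisson and, for shares, Clopper-Pearson 95% intervals came from python 3.11.15 (numpy 2.4.6, scipy 1.17.1, pandas 2.3.3). The interval of a log2 ratio combined the limits of both sides. A count of 0 was taken to allow 3 counts, which is below the upper limit of the 95% interval used in brackets. Endothelium-like cells served as the tissue that should lack a gene, since too few erythroid-like cells were found at E14.5 and E16.5. In simulated Poisson counts, 95.4% of the intervals of the log2 ratio held the true value. Such counts lack the gathering of UMIs in few cells, so this checks the calculation only. Depth per cell was 864 to 123785 UMIs. Gene positions are from GENCODE for GRCm38, matched by identifier, and promoters from RefSeq. Text names the members, pathway genes past 2-fold (at most 6 a comparison) and the 3 genes most like each member. Some genes counted in the lists are not reported here by name. Alternatives changed 1 choice at a time.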

Additional observations from a re-analysis of the deposited data

Results flagged for a closer look

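The difference between epithelium-like and mesenchyme-like cells had opposite signs at E14.5 and E16.5 for *Crabp2* and *Rarb*, in each case by a small ratio. The log2 ratio of epithelium to mesenchyme was −0.13 (−0.24 to −0.02) for *Crabp2* at E14.5. At E16.5 it was 0.23 (0.15 to 0.31). For *Rarb* it was 0.24 (0.03 to 0.46) and −0.32 (−0.46 to −0.17). None of the 4 values reached 2-fold, each stage is 1 sample, and the difference between the stages was not tested.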

How the results depend on the processing

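Each of the 5 counts of members past 2-fold was recomputed under 10 alternatives. For E16.5 against E14.5 mesenchyme-like cells the count of 2 became 1 with limits of 1000 genes and 10% mitochondrial UMIs, in cells thinned to 2000 UMIs, with a lead of at least 4 markers, without cells with 3 or more markers of a further list, and with 50 CPM added. For E16.5 against E14.5 epithelium-like cells the count of 1 became 2 in thinned cells, with a lead of 4, with 1 CPM added and with the mean over cells of each cell's CPM. For E14.5 against E11.5 mesenchyme-like cells the count of 0 became 2 with 1 CPM added and 1 with the mean over cells. With 50 CPM added, the counts of 4 and 5 for epithelium-like against mesenchyme-like cells became 1 at E14.5 and 2 at E16.5. Only the larger moves are listed, so a count not named under a setting may have changed as well. Genes called over the whole table numbered 598, 193, 178, 896 and 985 in the 5 comparisons, 1996, 762, 806, 2119 and 2474 with 1 CPM added and 142, 40, 34, 204 and 267 with 50 CPM added. No called ratio changed sign under any alternative run. An alternative added after seeing the data, with regions called from 3 UMIs and a lead of 2, kept 27 of 30 regional levels within their intervals. Levels over the lineages and regions moved outside their intervals more often under other settings, 42 of 75 in thinned cells, 15 of 75 without cells with further markers, 11 of 45 with the mean over cells, 9 of 45 under median-of-ratios scaling and 9 of 75 with a lead of 4. Log2 ratios did so in 23 of 46 cases in thinned cells and in 15 of 39 with the mean over cells. In thinned cells of E14.5 *Cyp26a1* and *Crabp1* had 0 UMIs in the Shh domain, against 11.8 and 9.41 CPM. Regions were called anew from the thinned counts, so these are not the same cells. So few UMIs were left in that region that a 0 there cannot be told from those levels. The cause of the moves listed was not tested. No paired analysis was possible because no barcode could be traced to its labelled sample, and leaving out a replicate was not run for the same reason. Comparisons with E11.5 epithelium were not run with 9 cells, nor were their alternatives. Thinning left out 749, 881 and 213 cells, and levels below about 3 counts in a group cannot be told from 0.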
